A study of Mus musculus with 28 samples.

Results

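Livers of CAR-deficient mice fed a diet containing ethanol were compared with livers of CAR-deficient mice fed the control diet, 3 arrays against 3, out of 28 arrays in the series. The members were the arrays whose titles name this genotype and 1 of these diets, with all 45011 probe sets that held values and were not Affymetrix controls. Affymetrix mouse genome arrays, on which each probe set reports the RNA of a gene by several short probes, were hybridized with the total RNA of 1 liver each. The CAR-deficient ethanol group and the CAR-deficient control group both carried the deficiency of CAR; how the allele was made is not given in the sources used here. Per the labels the mice were female C3H/HeN mice, 5 weeks old at the start. They were kept on Lieber's liquid diet with ethanol (ethanol group) or with water in its place (control group, isocaloric). The diets were given freely for 1 week and then at 12 g per day for 4 weeks. By the study's diet formula the control diet also held more maltose and dextrin than the ethanol diet. Effects of ethanol and of less carbohydrate therefore cannot be told apart. CAR-deficient mice fed ethanol plus ellagic acid (EA) or ethanol plus trans-resveratrol (RSV), 3 arrays each at about 50 mg of polyphenol per kg per day, entered the same fit and lent it their spread. Wild-type mice of the same strain, age and diets (4 ethanol and 4 control arrays) give values side by side and a test of the difference between the genotypes, a fit over all 28 arrays that also held the 8 arrays of wild-type mice fed EA or RSV.

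CAR, the constitutive androstane receptor encoded by Nr1i3, is a nuclear receptor of the hepatocyte that switches on enzymes and carriers for the removal of drugs and steroids when phenobarbital-like compounds are present. Many of the same P450 enzymes also differ between male and female mouse livers, because pulses of growth hormone in males, acting through the transcription factor STAT5b, hold a set of male-biased genes on and a set of female-biased genes off. Ethanol itself is oxidised in the hepatocyte by alcohol dehydrogenase and Cyp2e1, and the acetaldehyde so formed by aldehyde dehydrogenases.

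The arrays had been summarised by Distribution Free Weighting (DFW), a method that sets the weight of each probe by its variability and stretches or shrinks probe sets to unlike degrees. Levels and differences are therefore given in DFW units on a log2 scale, and a step of 1 need not stand for the same fold in each gene. In 35711 probe sets, 79.3% of all, the 12 CAR-deficient arrays varied with an SD of 0.01 or less, and these are called compressed. In 6 probe sets values exceeded 15, among them albumin (Alb) at 27.24 to 27.25 on ethanol and 27.23 on control arrays, and none of these 6 was called. Where 3 values of a diet are given, they are those of replicates 1, 2 and 3 in this order. Nr1i3, the targeted gene, read 8.56, 9.33 and 9.01 on the ethanol arrays and 8.79, 8.55 and 8.69 on the control arrays. Its groups overlapped (difference 0.29, SE 0.27, limma adjusted p = 0.739), and where its single probe set lies relative to the deleted part is not given, so it checks nothing about the genotype. Cps1, a urea cycle enzyme of hepatocytes, was high on every array (13.94 to 14.29 on ethanol and 13.83 to 14.09 on control arrays), and of 8 hepatocyte markers 0 passed the limma threshold, 2 had an unadjusted p under 0.05 and the rank product called 1. The sex-linked probe sets did not settle the sex given in the labels. The 3 probe sets of Xist, the RNA that coats the inactive X chromosome of female cells, read at most 5.93, 6.19 and 6.68 on the 12 CAR-deficient arrays, with a standard deviation of at most 0.0004, and a value that does not vary does not show that the RNA was absent. Of the genes of the Y chromosome, Uty and Kdm5d were likewise flat, at 7.87 and 7.65 (standard deviation 0.0001 and 0.0002), while Eif2s3y read 9.65 to 10.01 on the ethanol arrays and 9.66 to 9.75 on the control arrays. Eif2s3y lay at percentile 90 to 93.07 of all probe sets on the 12 CAR-deficient arrays. Levels of different probe sets are not on a common scale, and the sex of the mice was not tested.

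Ethanol replicate 1 stood apart from the rest. Its correlation with the other 11 CAR-deficient arrays ran between 0.9788 and 0.9866, against 0.9842 to 0.9984 among those 11. Ddit4, a stress-induced inhibitor of mTOR signalling, read 12.34 on this array and 7.74 to 8.08 on the other 5 arrays of the comparison. Lcn2, an acute phase protein, read 11.36 there and 6.91 to 7.44 on the others, and Car3, an abundant carbonic anhydrase of the liver, read 11.31 there and 13.80 to 14.32 on the others. These 3 genes were chosen after their values were seen. Without this array the remaining 2 ethanol arrays did not overlap the control arrays in 16.7% of all genes upward and 20% downward, so that counts without it are read against these shares. Across all probe sets, ethanol and control arrays lay farther apart (mean of 1 minus Pearson's r, 0.01261) than arrays of 1 diet (0.007208), with a one-sided exact permutation p of 0.1, the smallest that 20 splits of 6 arrays allow.

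In CAR-deficient livers the ethanol diet went with lower levels of the steroid reductase Hsd3b5, the organic anion carrier Slco1a1 and the fatty acid hydroxylase Cyp4a12a (differences of -5.61, -5.31 and -4.56, ethanol minus control), and with higher levels of the carrier Slc22a26 and the P450 enzyme Cyp2c29 (4.14 and 2.88). By limma, at an adjusted p under 0.05 (Benjamini-Hochberg, 45011 probe sets), 80 probe sets were higher and 75 were lower on ethanol (0.178% and 0.167% of those tested), and on all 155 the 3 ethanol and 3 control arrays did not overlap. Such separation without overlap was common in itself, in 9.25% of all probe sets upward and 9.76% downward. Among the 155, 62 were compressed, and 39 had a difference of at least 1, 15 upward and 24 downward. With each gene represented by its probe set of highest level, 37 genes were higher and 40 lower (0.203% and 0.22% of 18188, together 0.423%). Leaving out compressed probe sets, 28 genes were higher and 24 lower (0.54% and 0.463% of 5182). In these 5182 genes the arrays did not overlap in 15.2% upward and 12.4% downward, beside 9.4% and 11.3% of all genes. Lists whose members are mostly uncompressed are therefore also to be read against 15.2% and 12.4%. The median difference over genes with an uncompressed probe set was 0.01. By limma, 13.3% of all genes and 18.2% of genes with an uncompressed probe set had an unadjusted p under 0.05 in either direction.

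The number of calls depended on the arrays and the fit. Without ethanol replicate 1, 25 probe sets were higher and 22 lower, and 29 of the 155 were among them. Without ethanol replicate 3 the counts were 11 and 8, and without ethanol replicate 2 they were 82 and 43. Leaving out control replicate 1, 2 or 3 gave 12 and 8, 5 and 1, and 9 and 2. With the replicate number as a block, 9 were higher and 3 lower, and 10 of the 155 were kept. A rank product at a rate of 0.05 gave 403 higher and 443 lower. Of the 18188 genes it called 215 higher and 240 lower, and its counts in lists are read against these. Of the 30 genes named by size, 15 in each direction, none changed sign under any alternative run. They were chosen without overlap of the arrays, so leaving out 1 array could not reverse a sign. Most other settings left the difference itself unchanged, and nothing is read from the signs. Hsd3b5 and Cblb passed in each of the 17 alternatives and Cyp2c29 and Slc8b1 in 16, whereas Cyp4a12a passed in 6, Slc22a26 in 6 and Hspa1a in 5. The plot of calls by setting gives each count.

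**Figure D1:**
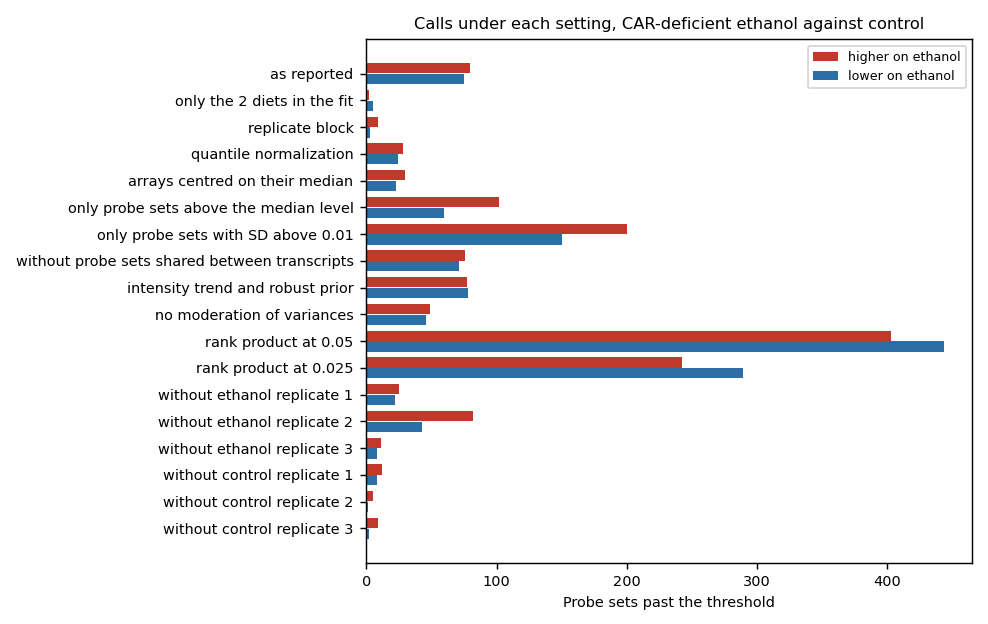
Number of probe sets past the threshold of adjusted p 0.05 (for the rank product, its rate) in CAR-deficient ethanol against control livers under each setting, with those higher on ethanol in red and those lower in blue. The 80 and 75 probe sets as reported fell to 9 and 3 with the replicate block, and stood at 200 and 150 when only probe sets with a standard deviation above 0.01 were tested.

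Genes that are higher in male than in female mouse livers held more of the falling genes than any other of the 67 lists tried. Of 20 listed genes 17 were measured, 8 fell past the threshold (all genes, 0.22%) and none rose. On 15 of them every ethanol array lay under every control array, against 11.3% of all genes. Their median difference was -1.58. Hsd3b5, which reduces active steroids in male liver, read 6.77, 6.51 and 6.54 on ethanol and 12.14, 12.40 and 12.12 on control arrays. The groups lay far apart and each was tight (difference -5.61, SE 0.12, limma adjusted p = 9.57e-07, with the replicate block 5.91e-05), and the arrays of the EA and RSV diets were as low, between 6.27 and 6.74. Slco1a1, an uptake carrier for bile acids and steroid conjugates, read 7.25, 7.06 and 6.76 on ethanol and 12.18, 12.43 and 12.38 on control arrays. Every ethanol array was low (difference -5.31, SE 0.68, limma adjusted p = 0.0293, with the block 0.11), and the RSV arrays, which share in this error, read 9.99, 8.88 and 6.94. Cyp4a12a, an androgen-dependent fatty acid hydroxylase, read 6.70, 7.39 and 6.33 on ethanol and 11.33, 11.44 and 11.34 on control arrays, again without overlap (difference -4.56, SE 0.69, adjusted p = 0.046, with the block 0.117). Cyp2d9, a testosterone hydroxylase, read 11.81, 12.08 and 11.71 on ethanol and 13.22, 13.42 and 13.30 on control arrays. It was lower on every ethanol array by a smaller step (difference -1.45, SE 0.21, adjusted p = 0.0429, with the block 0.115).

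The other 4 members that fell were the complement genes C6 and C8a, the glucuronosyltransferase Ugt2b38 (difference -1.17, SE 0.14, limma adjusted p = 0.0262, with the replicate block 0.0646) and the fatty acid hydroxylase Cyp2u1 (-1.05, SE 0.16, adjusted p = 0.0434, with the block 0.11). Ugt2b38 read 6.51 to 6.64 on ethanol and 7.47 to 8.11 on control arrays, and both probe sets of Cyp2u1 fell. A further 3 members separated widely but missed the threshold on the probe set that represents the gene. Elovl3, an elongase of very long fatty acids, read 6.69, 7.58 and 7.95 on ethanol and 10.36, 10.73 and 10.20 on control arrays (adjusted p = 0.119). Serpina12, the secreted protein vaspin, read 8.66, 8.31 and 8.71 on ethanol and 11.11, 11.42 and 11.43 on control arrays (adjusted p = 0.142), and its other, compressed probe set passed with a difference under 0.01 (adjusted p = 0.0262, with the block 0.0994). Cyp7b1, an oxysterol hydroxylase, read 11.29, 10.70 and 10.47 on ethanol and 12.61, 12.41 and 12.19 on control arrays (adjusted p = 0.0551). In all 3 the ethanol arrays lay under the control arrays without overlap. Scara5 went the other way by 0.47, on ethanol replicate 1 alone, which read 9.55 beside 6.40 and 6.20. Of the 8 members that fell, 1 passed with the block, 2 without ethanol replicate 1, 3 without ethanol replicate 2, 2 without ethanol replicate 3, and 2, 1 and 1 without control replicates 1, 2 and 3. Without ethanol replicate 1, 16 of the 17 members lay lower without overlap (20% of all genes).

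**Figure D2:**
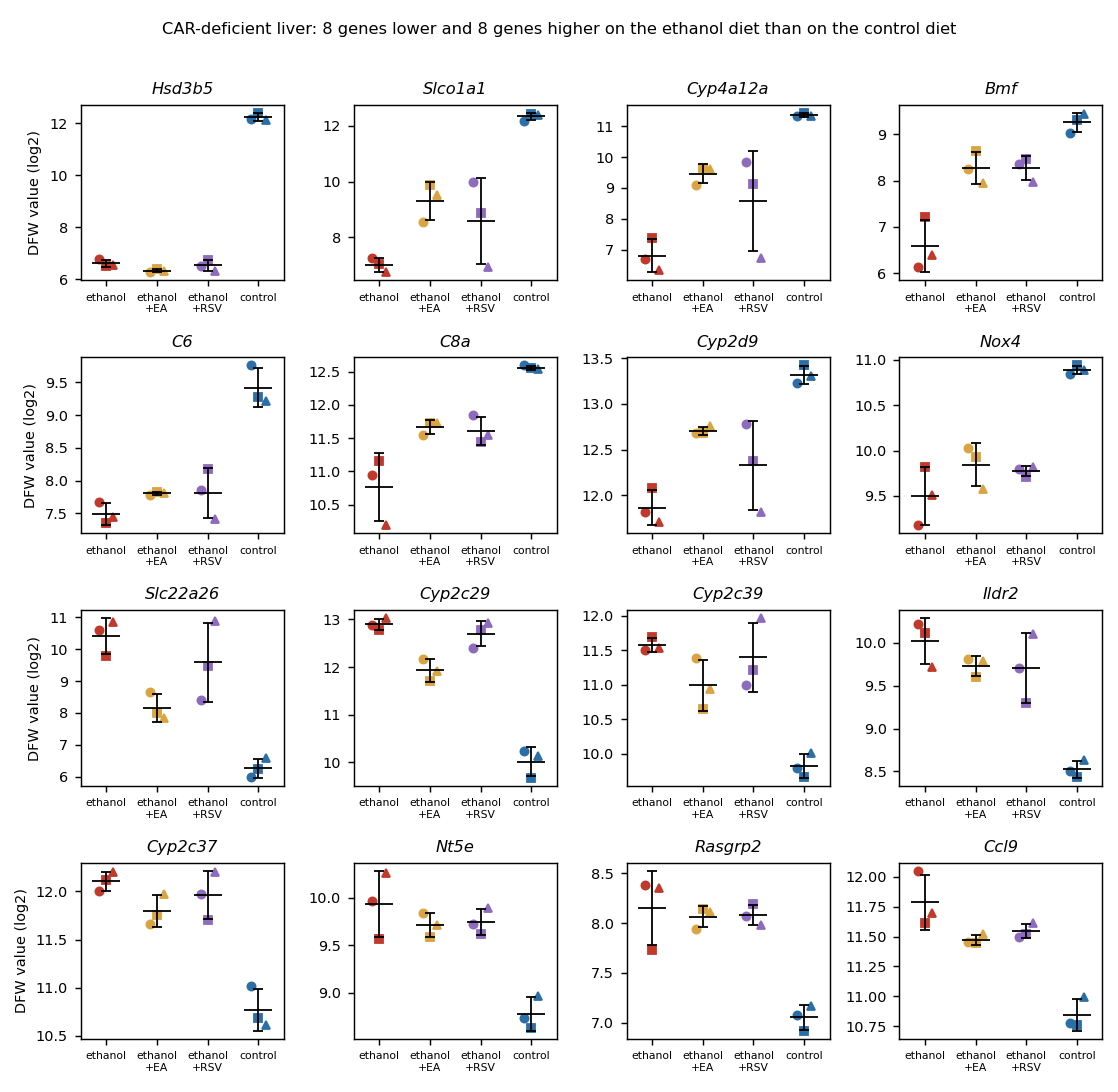
DFW values (log2) on each CAR-deficient array for 8 genes lower and 8 genes higher on ethanol than on control, with the ethanol, ethanol plus EA, ethanol plus RSV and control diets side by side (n = 3 arrays each; circles, squares and triangles are replicates 1, 2 and 3; bars show the mean and SD). Hsd3b5 sits between 6.27 and 6.77 on all 9 ethanol-fed arrays and above 12 on the 3 control arrays, and in every panel the ethanol and control arrays do not overlap.

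Because male-biased genes depend on STAT5b, the promoters of the genes that moved were searched for its palindrome TTCNNNGAA, which reads the same on both strands, in the 250 bases before the start of each gene (RefSeq, GRCm38.p6). The motif stood in 8.13% of the 27025 promoters of the table. It was found in 3 of the 18 promoters of genes that fell with an uncompressed probe set (C8a, Keg1 and Nox4) and in 2 of the 26 of genes that rose (Cpsf7 and Slc22a26), in 2 of the 12 of male-biased genes, in 1 of the 12 of female-biased genes and in none of the 29 of CAR targets. These bases are printed with the motif in capitals for the gene that fell most and for the 3 with a match that fell. They are also printed for Slc22a26 and Cyp2c29, which rose most among the genes past the threshold. They lie at chr3:98645535-98645784, minus strand (Hsd3b5), chr4:104876399-104876648, minus strand (C8a), chr19:12695540-12695789, plus strand (Keg1), chr7:87246399-87246648, plus strand (Nox4), chr19:7802668-7802917, minus strand (Slc22a26) and chr19:39286835-39287084, plus strand (Cyp2c29). The matches began 228 bases before the start in C8a, 173 and 107 in Keg1, 222 in Nox4 and 141 in Slc22a26, and Hsd3b5 and Cyp2c29 held none in this window.
Hsd3b5: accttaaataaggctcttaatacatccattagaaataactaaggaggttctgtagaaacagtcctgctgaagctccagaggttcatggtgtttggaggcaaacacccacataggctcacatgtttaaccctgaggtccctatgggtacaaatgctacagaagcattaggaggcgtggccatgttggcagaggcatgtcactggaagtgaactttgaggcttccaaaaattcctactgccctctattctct
C8a: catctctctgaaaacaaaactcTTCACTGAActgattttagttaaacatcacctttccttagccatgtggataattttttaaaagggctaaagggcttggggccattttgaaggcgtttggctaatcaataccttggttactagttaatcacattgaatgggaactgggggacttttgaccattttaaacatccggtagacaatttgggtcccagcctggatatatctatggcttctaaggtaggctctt
Keg1: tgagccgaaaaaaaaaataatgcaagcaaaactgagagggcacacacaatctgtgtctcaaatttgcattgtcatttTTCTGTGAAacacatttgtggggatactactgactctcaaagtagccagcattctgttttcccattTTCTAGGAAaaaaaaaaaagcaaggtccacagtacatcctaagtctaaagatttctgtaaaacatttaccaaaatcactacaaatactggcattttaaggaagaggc
Nox4: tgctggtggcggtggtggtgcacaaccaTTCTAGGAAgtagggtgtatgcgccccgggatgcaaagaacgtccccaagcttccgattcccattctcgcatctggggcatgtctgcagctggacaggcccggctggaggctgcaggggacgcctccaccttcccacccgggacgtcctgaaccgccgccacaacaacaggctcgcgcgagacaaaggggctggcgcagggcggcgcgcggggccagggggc
Slc22a26: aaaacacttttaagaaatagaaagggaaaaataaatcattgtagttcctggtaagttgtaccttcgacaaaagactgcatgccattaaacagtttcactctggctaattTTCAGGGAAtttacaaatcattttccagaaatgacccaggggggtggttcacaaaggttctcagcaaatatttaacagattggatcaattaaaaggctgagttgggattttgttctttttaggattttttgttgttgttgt
Cyp2c29: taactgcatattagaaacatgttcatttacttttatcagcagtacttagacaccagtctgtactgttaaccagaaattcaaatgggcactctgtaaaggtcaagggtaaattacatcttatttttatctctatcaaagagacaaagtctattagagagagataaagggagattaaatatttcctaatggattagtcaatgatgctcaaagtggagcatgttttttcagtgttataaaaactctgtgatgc

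Most female-biased genes had higher levels on ethanol, and none passed the threshold. Of 20 listed genes 15 were measured. On 11 of them every ethanol array lay above every control array, against 9.4% of all genes, and their median difference was 1.56. By limma 0 passed after adjustment and 9 had an unadjusted p under 0.05, all upward, beside 13.3% of all genes in either direction. The rank product at 0.05 called 11 higher, beside 215 higher and 240 lower of all 18188 genes. Sult3a1, a sulfotransferase of female liver, read 12.59, 9.44 and 11.53 on ethanol and 5.62, 5.74 and 5.58 on control arrays. All 3 ethanol arrays were high but unequal (difference 5.54, SE 1.12, limma adjusted p = 0.1). Cyp2b9, a female-predominant P450, read 11.32, 12.68 and 12.77 on ethanol and 7.71, 9.06 and 10.31 on control arrays (adjusted p = 0.0875), with the control arrays unlike each other. Cyp3a44, another P450 of female liver, read 8.69 to 10.26 on ethanol and 6.38 to 6.54 on control arrays (adjusted p = 0.0824). Cux2, a transcription factor of female hepatocytes, read 9.46, 7.62 and 8.68 on ethanol and 7.47, 6.41 and 6.40 on control arrays (adjusted p = 0.2). None of these groups overlapped. Sult1e1 and Cyp17a1 were far higher on ethanol replicate 1 (9.62 and 10.96) than on replicates 2 and 3, which read 6.30 and 6.03 for Sult1e1 and 7.59 and 7.69 for Cyp17a1. Without that array 13 of the 15 lay higher without overlap (16.7% of all genes), and the median difference was 1.22. In these mice, female per the labels, the male-biased genes had a mean level of 10.49 to 10.63 on the control arrays. The female-biased genes had a mean level of 7.29 to 7.52 there. Such levels of unlike probe sets share no common scale, and whether the control livers held a male pattern was not tested. Within the growth hormone pathway itself 0 of 15 measured genes passed the threshold, 1 had an unadjusted p under 0.05 and the rank product called 3 higher and 1 lower. Ghr, the receptor, read 12.59 to 12.94 on ethanol and 13.14 to 13.22 on control arrays (adjusted p = 0.427), and Igf1 read 12.77 to 13.03 on ethanol and 12.81 to 12.95 on control arrays.

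**Figure D3:**
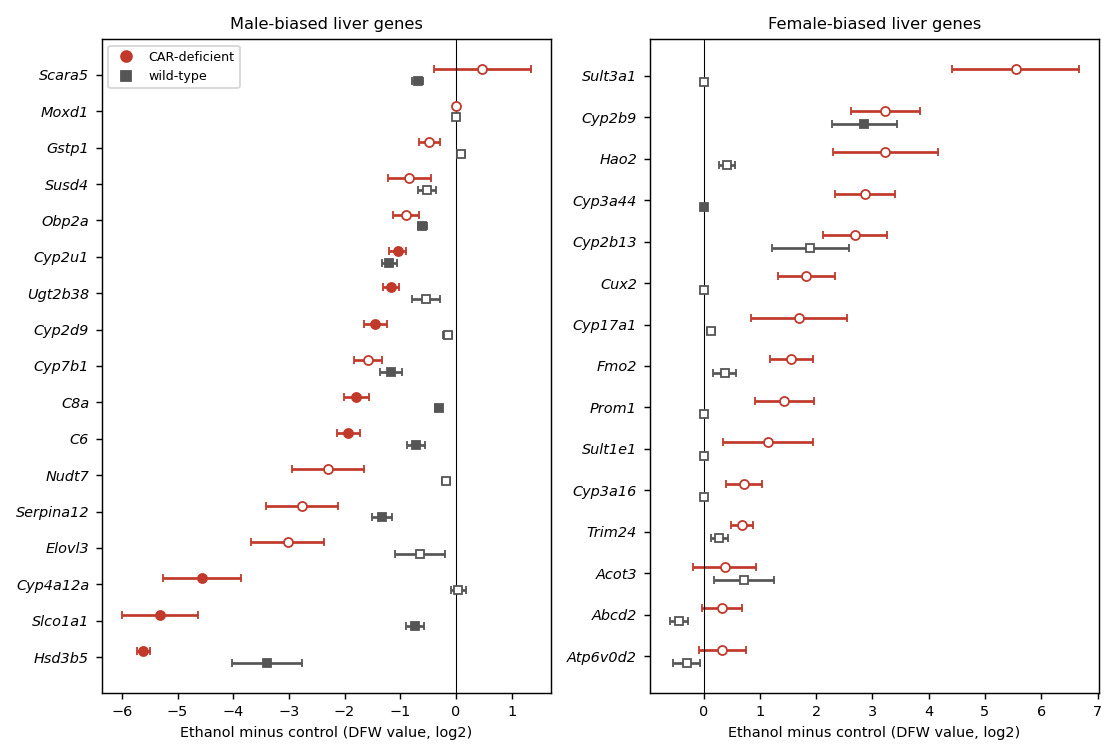
Difference of DFW values (log2), ethanol minus control, for the 17 male-biased and 15 female-biased liver genes measured, in CAR-deficient livers (red circles) and wild-type livers (grey squares), with filled symbols for adjusted p under 0.05 by limma and bars for the SE. Among the male-biased genes in CAR-deficient livers 8 symbols are filled, all to the left of 0, and among the female-biased genes none is filled in CAR-deficient livers and 2 are filled in wild-type livers.

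Several target genes of CAR rose in these CAR-deficient livers. Of 37 listed genes for the handling of drugs and steroids, 31 were measured and 4 rose past the threshold (all genes, 0.203%), while 0 fell. On 19 every ethanol array lay above every control array and on 3 below, against 9.4% and 11.3% of all genes. Among genes with an uncompressed probe set, as all 31 were, these shares were 15.2% and 12.4%. The median difference of the 31 was 0.73. The 4 that rose were P450 enzymes. Cyp2c29, an epoxygenase of arachidonic acid, read 12.87, 12.78 and 13.02 on ethanol and 10.24, 9.68 and 10.14 on control arrays. The ethanol arrays were close together and well above the controls (difference 2.88, SE 0.19, limma adjusted p = 0.00283, with the replicate block 0.0145). Cyp2c39, which oxidises retinoic acid, read 11.50, 11.69 and 11.53 on ethanol and 9.79, 9.67 and 10.00 on control arrays (difference 1.76, SE 0.26, adjusted p = 0.0434, with the block 0.119). Cyp2c37 read 12.00, 12.12 and 12.20 on ethanol and 11.02, 10.68 and 10.61 on control arrays (difference 1.34, SE 0.15, adjusted p = 0.0255, with the block 0.09). The groups of both genes lay apart with little spread. Cyp3a25 rose by 0.34 (SE 0.04, adjusted p = 0.0293, with the block 0.115). The Cyp2c genes are close copies of each other, so their probe sets may share signal.

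Cyp2b10, the P450 most used as a readout of CAR, read 9.07, 7.18 and 7.61 on ethanol and 6.95, 6.82 and 6.83 on control arrays. It was higher on every ethanol array, and most on replicate 1, but did not pass the threshold (difference 1.09, SE 0.40, limma adjusted p = 0.322). Slco1a4, an uptake carrier induced by CAR ligands, read 11.28, 11.37 and 11.42 on ethanol and 9.84, 9.85 and 10.16 on control arrays, close to the threshold (adjusted p = 0.0519), and Cyp2c38 likewise read 10.85 to 11.17 on ethanol and 9.25 to 9.56 on control arrays (adjusted p = 0.0537). The glutathione transferases Gsta2 and Gstm1 differed by 1.50 and 0.73 without overlap and missed the threshold (adjusted p = 0.131 and 0.149). Cyp2c50, Cyp2c54 and Aldh1a1 were the 3 members that lay lower without overlap, with differences of -0.56, -0.89 and -0.41, and none of them passed (adjusted p = 0.746, 0.636 and 0.504). Of the 4 calls 1 passed with the block, 2 without ethanol replicate 1, 2 without ethanol replicate 2, 1 without ethanol replicate 3, and 2, 1 and 1 without control replicates 1, 2 and 3.

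**Figure D4:**
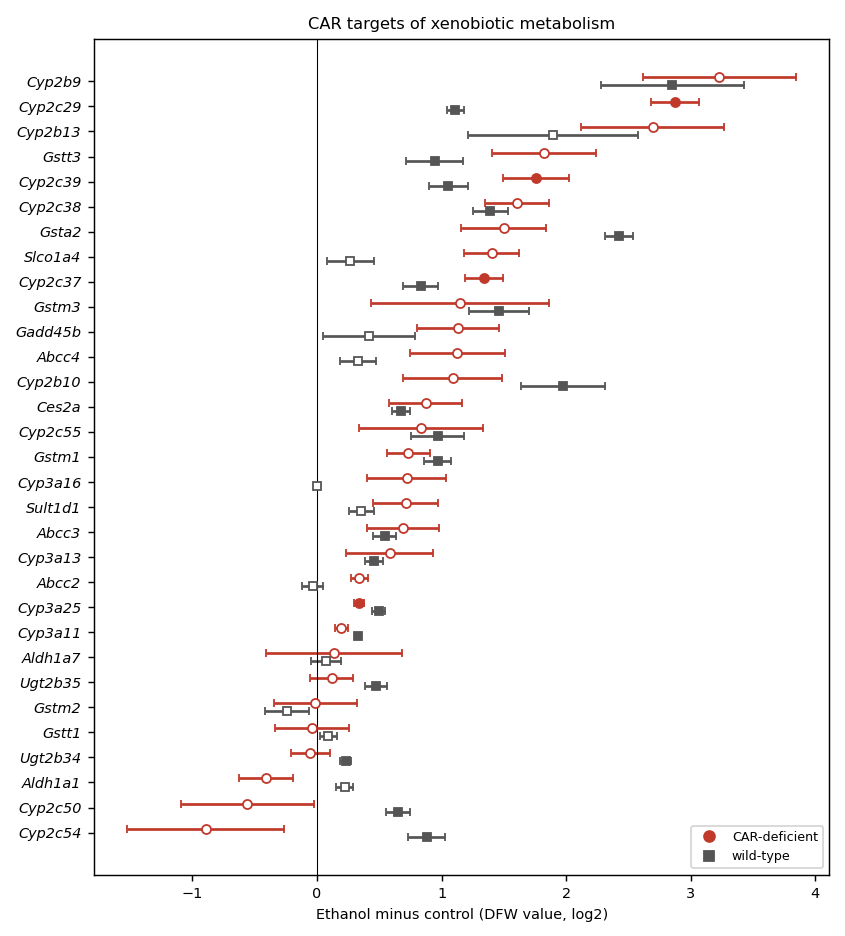
Difference of DFW values (log2), ethanol minus control, for the 31 CAR target genes measured, in CAR-deficient livers (red circles) and wild-type livers (grey squares), with filled symbols for adjusted p under 0.05 by limma and bars for the SE. In CAR-deficient livers 4 symbols are filled (Cyp2c29, Cyp2c39, Cyp2c37 and Cyp3a25) and in wild-type livers 20, all to the right of 0.

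C6 and C8a, genes of terminal complement, fell on ethanol. Of 20 listed complement genes made by the liver 16 were measured, 3 fell (0.22% of all genes fell), 0 rose, and 6 lay lower without overlap (11.3% of all genes), with a median difference of -0.21. Without ethanol replicate 1 the median was -0.10, with 7 lower and 2 higher without overlap (20% and 16.7% of all genes). Over all probe sets of the list, with all arrays, the median was -0.05. C6, which joins the membrane attack complex, read 7.67, 7.35 and 7.44 on ethanol and 9.76, 9.28 and 9.22 on control arrays. The lowest control array lay above the highest ethanol array by a wide margin (difference -1.94, SE 0.20, limma adjusted p = 0.0233, with the replicate block 0.0671). C8a, the alpha chain of C8, read 10.95, 11.16 and 10.20 on ethanol and 12.59, 12.55 and 12.53 on control arrays (difference -1.79, SE 0.22, adjusted p = 0.029, with the block 0.102). C1ra, a protease that starts the classical pathway, fell by 0.34 (SE 0.05, adjusted p = 0.0434, with the block 0.139). C8b and C9 differed by -1.19 and -1.20 without overlap and missed the threshold (adjusted p = 0.125 and 0.0981), and factor B (Cfb) differed by -0.03. C6 and C8a are also members of the male-biased list. With the block, or without control replicate 1, 2 or 3, 0 of the 3 passed, and without ethanol replicate 3, 1 passed.

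Other genes that fell past the threshold belong to no group named so far. Bmf, a pro-apoptotic member of the BCL2 family, read 6.14, 7.21 and 6.40 on ethanol and 9.02, 9.31 and 9.43 on control arrays. It was low on every ethanol array (difference -2.67, SE 0.29, limma adjusted p = 0.0233, with the replicate block 0.0566). Nox4, an NADPH oxidase that releases hydrogen peroxide, read 9.18, 9.82 and 9.51 on ethanol and 10.85, 10.94 and 10.89 on control arrays, and both of its probe sets fell (difference -1.39, SE 0.16, adjusted p = 0.0255, with the block 0.0962). Hspa1a, an inducible chaperone, read 6.77, 6.48 and 6.27 on ethanol and 8.08, 8.09 and 7.49 on control arrays (difference -1.38, SE 0.20, adjusted p = 0.041, with the block 0.125). The groups of all 3 genes were separate. Hspa1b, a close copy of Hspa1a, differed by -1.74 without passing (adjusted p = 0.34), and among the 21 cytosolic heat shock genes measured Hspa1a was the 1 that fell. Nat8f5, of the N-acetyltransferase family, differed by -1.28, Keg1 by -1.25, Dnaic1, a dynein chain of cilia, by -1.20 and Omd, a matrix proteoglycan, by -1.19. These 4 passed at adjusted p = 0.0293, 0.046, 0.0345 and 0.0372 and did not pass with the block (0.115, 0.101, 0.115 and 0.11).

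Among the genes that rose, Slc22a26, of the organic anion transporter family, read 10.60, 9.78 and 10.85 on ethanol and 5.98, 6.25 and 6.58 on control arrays. Every ethanol array exceeded every control array with a wide gap (difference 4.14, SE 0.58, limma adjusted p = 0.0383, with the replicate block 0.11), and both of its probe sets rose. Ildr2, a membrane protein of the endoplasmic reticulum, read 10.23, 10.12 and 9.72 on ethanol and 8.51, 8.43 and 8.63 on control arrays, with all 3 of its probe sets higher (difference 1.50, SE 0.20, adjusted p = 0.0345, with the block 0.11). Nt5e, which forms adenosine outside the cell, read 9.97, 9.57 and 10.26 on ethanol and 8.73, 8.63 and 8.97 on control arrays (difference 1.16, SE 0.17, adjusted p = 0.0434, with the block 0.0633). In both genes the ethanol arrays were the high ones without overlap. Cblb, a ubiquitin ligase, read 8.28, 8.29 and 8.37 on ethanol and 7.63, 7.62 and 7.64 on control arrays. Its step was small and its spread the smaller (difference 0.68, SE 0.03, adjusted p = 0.000319, with the block 0.00893), though only 1 of its 3 probe sets passed. Slc8b1, the mitochondrial sodium and calcium exchanger, read 10.16, 9.95 and 10.10 on ethanol and 9.19, 9.29 and 9.25 on control arrays (difference 0.83, SE 0.06, adjusted p = 0.00479, with the block 0.0495).

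The remaining genes named by size rose by smaller steps. They were Rasgrp2, an exchange factor for Rap (1.10), the chemokine Ccl9 (0.94), the ceramide synthase Cers6 (0.93), the glucose transporter Slc2a1 (0.92), the centrosomal protein Tacc2 (0.91), the ubiquitin ligase Siah1a (0.74) and the zinc finger gene Zfp945 (0.67). By limma their adjusted p lay between 0.0185 for Tacc2 and 0.0499 for Cers6 and Zfp945, and none passed with the replicate block (0.0633 for Tacc2 to 0.152 for Cers6). Slc2a1 read 8.63, 8.65 and 8.34 on ethanol and 7.79, 7.52 and 7.56 on control arrays, and all 3 of its probe sets rose. Ccl9 read 12.05, 11.61 and 11.70 on ethanol and 10.78, 10.76 and 10.99 on control arrays, on both probe sets. For these genes too no ethanol array overlapped a control array. Of the 30 genes named by size, 4 passed with the replicate block, 8 without ethanol replicate 1, 13 and 5 without ethanol replicates 2 and 3, and 6, 4 and 4 without control replicates 1, 2 and 3.

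Of 67 gene lists, most of them by common function or cell type, 10 held a member past the threshold and 57 held none. Among the 10 was a list of single genes strongly shifted in the wild-type comparison (14 measured, 1 higher and 1 lower). That list was not made by function, and nothing is read from it. Beyond those described, the calls were Slco1a1 among bile acid genes, Srsf5, a splicing factor, which rose by 0.63 (limma adjusted p = 0.029, with the replicate block 0.11), and the compressed probe sets of Stat2 and Il1b, whose differences were under 0.01 and which did not pass with the block (0.0633 and 0.09). In other lists many members differed in 1 direction without passing. Of 23 genes of cholesterol synthesis and uptake 0 passed, and 4 had an unadjusted p under 0.05 downward and 1 upward. In either direction 13.3% of all genes and 18.2% of those with an uncompressed probe set had such a p by limma. Among the 23 the rank product called 13 lower and 1 higher, beside 240 lower and 215 higher of all 18188 genes. On 13 of them the ethanol arrays lay lower without overlap (all genes, 11.3%), with a median of -0.64. Hmgcs1, which commits acetyl units to the pathway, read 10.89, 10.96 and 11.85 on ethanol and 12.12, 12.25 and 12.79 on control arrays (adjusted p = 0.47), and Insig2, a brake on the pathway, read 11.32, 10.69 and 11.98 on ethanol and 10.08, 10.32 and 10.34 on control arrays (adjusted p = 0.175). Hmgcs1 was low and Insig2 high on every ethanol array. The bile acid enzymes Cyp7a1 and Cyp8b1 differed by -2.43 and -2.24 without overlap and missed the threshold (adjusted p = 0.368 and 0.202). Interferon-stimulated genes were lower without overlap in 15 of 25 and higher in none (11.3% and 9.4% of all genes), with a median of -0.33. Leaving out ethanol replicate 1 gave 17 lower without overlap (20% of all genes) and a median of -0.20. Of these 25, 7 were compressed, 11 had an unadjusted p under 0.05 and the rank product called 9, all lower. Usp18, which dampens interferon signalling, read 7.94, 8.38 and 8.07 on ethanol and 9.18, 9.16 and 9.03 on control arrays (adjusted p = 0.0607).

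Proteasome subunits lay higher without overlap in 13 of 31 (9.4% of all genes, 15.2% of those with an uncompressed probe set) and lower in none. Their median was 0.14 and, over all probe sets of the list, 0.06. NRF2 target genes, which answer oxidative stress, lay higher without overlap in 7 of 19 and lower in none (median 0.24). The same shares, 9.4% and 15.2% upward, stand beside this count. By limma 0 passed in either list, and at an unadjusted p under 0.05 there were 4 and 6 upward (13.3% of all genes in either direction). The rank product called 0 and 5, beside 215 higher and 240 lower of all 18188 genes. Nqo1, a quinone reductase, read 8.52, 7.53 and 8.19 on ethanol and 6.92, 6.84 and 7.02 on control arrays, without overlap (limma adjusted p = 0.0985). Of 14 genes of ethanol, acetaldehyde and acetate metabolism 0 passed, 0 had an unadjusted p under 0.05 and the rank product called 1. Cyp2e1, the ethanol-oxidising P450, read 14.08, 14.57 and 14.47 on ethanol and 14.46, 14.59 and 14.48 on control arrays, and Adh1 read 13.88 to 13.97 on ethanol and 13.82 to 13.89 on control arrays. Both overlapped between diets. Of 19 genes of mitochondrial fatty acid oxidation and ketogenesis 0 passed, 0 had an unadjusted p under 0.05 and the rank product called 0. Their median was -0.07, with 1 higher without overlap (9.4% of all genes). Without ethanol replicate 1 the median was 0.10, with 8 higher (16.7% of all genes).

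**Figure D5:**
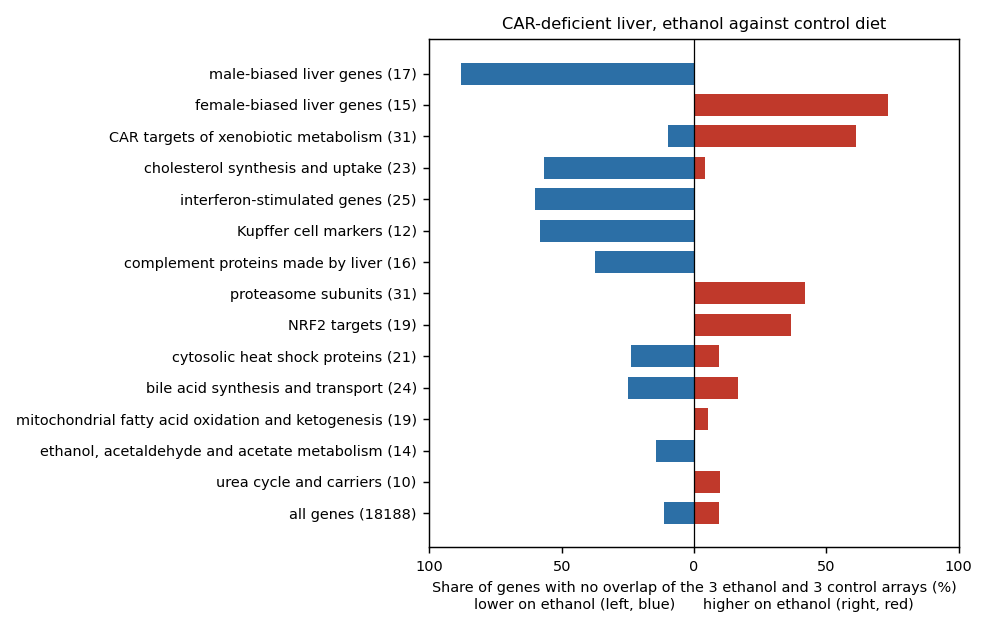
Share of the measured genes of each list (number in brackets) whose 3 ethanol and 3 control arrays do not overlap in CAR-deficient livers, lower on ethanol to the left in blue and higher to the right in red, with all 18188 genes at the bottom. Male-biased genes reached 88.2% to the left and female-biased genes 73.3% to the right, beside 11.3% and 9.4% of all genes.

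Markers of other liver cells were measured beside these groups. Of 12 Kupffer cell markers, the genes of liver macrophages, 7 lay lower on ethanol without overlap (11.3% of all genes) and none higher (median -0.27), and their mean level was 8.76 to 8.97 on ethanol and 8.99 to 9.20 on control arrays. Adgre1, a macrophage surface receptor, read 7.86, 7.99 and 8.22 on ethanol and 8.76, 8.65 and 8.50 on control arrays (limma adjusted p = 0.119), and C1qb read 9.18, 9.05 and 9.24 on ethanol and 9.66, 9.56 and 9.47 on control arrays (adjusted p = 0.0634). Both were low on every ethanol array. By limma 0 of the 12 passed and 8 had an unadjusted p under 0.05, beside 13.3% of all genes in either direction. The 8 and the 2 that the rank product called were all downward. Of all 18188 genes the rank product called 240 lower. In whole liver fewer cells of a type and less RNA per cell cannot be told apart. Alas2, the erythroid enzyme of heme synthesis, read 7.50, 7.82 and 8.08 on ethanol and 9.70, 9.87 and 10.08 on control arrays, lower on every ethanol array (adjusted p = 0.0676), while the other 2 erythroid markers measured were compressed. The 8 markers of T and NK cells were all compressed. Of 9 markers of sinusoidal endothelial cells 0 lay apart in either direction, or 2 upward without ethanol replicate 1 (16.7% of all genes). The part of these cells in the interferon, complement and other results was not tested.

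The same diets were also compared in wild-type livers, where 991 probe sets rose and 1510 fell (2.2% and 3.35% of 45037, 4 arrays a diet). Of the 155 probe sets called in CAR-deficient livers, 53 were called in the same direction in wild-type livers and 0 in the opposite one, while 86 were compressed there. Leaving out 1 wild-type array gave 473 to 920 higher and 821 to 1292 lower, and without ethanol replicates 1 or 4 or control replicates 2, 3 or 4 these were 550, 596, 473, 510 and 562 higher and 938, 1005, 857, 821 and 912 lower. The difference between the genotypes, fitted over all 28 arrays, was past the threshold in 580 probe sets with a more positive and 419 with a more negative effect in CAR-deficient livers (1.29% and 0.931% of 45011), and in 2.44% of genes. These counts depended on the scaling, with 828 and 9583 after quantile normalization within each genotype and 56 and 42 among uncompressed probe sets only. With the replicate number as a block for the CAR-deficient arrays they were 625 and 497. DFW had evidently been run apart for the genotypes, so the scale of a probe set may differ between them, and the genes below were chosen by their effect in CAR-deficient livers. Cyp4a12a differed by -4.56 in CAR-deficient and by 0.04 in wild-type livers (difference between genotypes -4.60, limma adjusted p = 0.000271). Its wild-type arrays read 11.32, 11.19, 11.49 and 11.29 on ethanol and 11.19, 11.31, 11.25 and 11.38 on control, with the diets overlapping. Slco1a1 differed by -5.31 in CAR-deficient and by -0.74 in wild-type livers (adjusted p of the difference 0.000271), and Slc22a26 by 4.14 in CAR-deficient and 0.43 in wild-type livers (0.000766).

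Hsd3b5 fell in both genotypes. In wild-type livers it read 7.83, 8.55, 10.13 and 9.31 on ethanol and 12.48, 12.41, 12.23 and 12.29 on control arrays, a difference of -3.40 (limma adjusted p = 0.0103), and the difference between genotypes did not pass (-2.21, SE 0.75, adjusted p = 0.136). Cyp2c29 rose in both, by 2.88 in CAR-deficient and 1.11 in wild-type livers, and here the difference between genotypes passed (1.77, adjusted p = 2.67e-05). For Cyp2c39, Cyp2c37, Ildr2, Slc2a1 and Cyp2u1 it did not pass (adjusted p = 0.235, 0.237, 0.607, 0.99 and 0.779), with both genotypes past the threshold in the same direction. Cyp2b10 differed by 1.09 in CAR-deficient and 1.97 in wild-type livers, with only the wild-type difference past the threshold (adjusted p = 0.322 and 0.0072), and the difference between the genotypes did not pass (-0.88, adjusted p = 0.43). Of the CAR targets 4 of 31 rose in CAR-deficient and 20 of 31 in wild-type livers, with medians of 0.73 and 0.54. Of the male-biased genes 8 of 17 fell in CAR-deficient and 9 of 17 in wild-type livers, with medians of -1.58 and -0.60. Of all genes, 2.97% rose and 4.05% fell in wild-type livers (4 arrays a diet). In CAR-deficient livers (3 arrays a diet) 0.203% rose and 0.22% fell. The fits differ in their number of arrays, so these counts do not compare the strength of the response between genotypes.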

How the data were processed

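Total RNA of 28 livers was measured on Affymetrix arrays, 1 liver an array. The deposited values are log2 expression values that the authors made from the scans by DFW in R/Bioconductor. The wild-type and CAR-deficient arrays had evidently been summarised apart, since other probe sets were compressed in each. Of 45101 probe sets, 64 Affymetrix controls and 26 without values on CAR-deficient arrays were set aside. Groups came from the sample labels. Ethanol and control arrays were compared with limma 3.58.1 (R 4.3.3), lmFit and eBayes over the 4 diets of a genotype, with Benjamini-Hochberg adjustment over 45011 probe sets and a threshold of 0.05. Adjusted p-values throughout are from limma, and they measure only the spread between these samples. The difference between genotypes was fitted over all 28 arrays. The fit was tested on simulated data. A rank product (50 permutations) was an alternative, beside other normalizations, filters and samples. The study ran that method on values summarised by qFARMS, whereas here it was run on the DFW values. The labels number the replicates, but neither they nor the study's methods state a pairing of ethanol with control arrays. In CAR-deficient mice the residuals of same-numbered ethanol and control arrays correlated (r = 0.410, 0.288 and 0.333, each over 0.1). The best r with another number was -0.249, 0.111 and 0.089 in the same order. Whether the numbers stand for a true pairing was not tested. The main fit holds no such block, and values with the number as a block are given where they change a call.

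A gene was represented by its probe set of highest level, and 34925 probe sets named 1 gene, 932 several and 9154 none. The genes named were the 15 with the largest difference in each direction among called genes without overlap of the arrays (named by size), Nr1i3, and list members described with their list. The members and gene lists were chosen with earlier results of these data known. The number of arrays limits the precision. Figures used Python 3.11.15 and matplotlib 3.10.9.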

Additional observations from a re-analysis of the deposited data

Results flagged for a closer look

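For 31 genes past the threshold in CAR-deficient livers, the 30 named by size and Cyp3a25, the difference between ethanol and control diets was also compared between the genotypes. It differed in 15 of them (limma, adjusted p under 0.05 over all probe sets), beside 2.44% of all genes, but the 31 had been chosen for their effect in CAR-deficient livers and nothing is read from that share. The difference in CAR-deficient minus that in wild-type livers was positive for Slc22a26 (3.71), Cyp2c29 (1.77), Nt5e (0.79), Siah1a (0.74) and Rasgrp2 (0.67). It was negative for Cyp4a12a (-4.60), Slco1a1 (-4.57), Bmf (-2.0), C8a (-1.48), Keg1 (-1.40), Cyp2d9 (-1.30), Nat8f5 (-1.28), C6 (-1.22), Omd (-1.19) and Hspa1a (-1.12). Without CAR-deficient ethanol replicate 1, Nt5e and Rasgrp2 no longer passed (adjusted p = 0.0662 and 0.0841). With the replicate number as a block for the CAR-deficient arrays all 15 passed. Siah1a, Nat8f5 and Omd were compressed in wild-type livers.

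In wild-type livers, 1 of the 4 ethanol arrays lay apart from the others for C8a, at 12.09 beside 11.86, 11.87 and 11.89. It was the only such array in 62 groups of 4 examined, and chance marks about 1 in 20 of such groups.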

How the results depend on the processing

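Numbers of calls are given as higher and then lower on ethanol. In CAR-deficient livers, 80 and 75 probe sets became 2 and 5 with only the ethanol and control arrays fitted, 28 and 24 after quantile normalization, 30 and 23 after centring, 200 and 150 above an SD of 0.01, and 49 and 46 without moderation. The rank product gave 403 and 443 at 0.05 and 242 and 289 at 0.025. Leaving out 1 array gave 5 to 82 and 1 to 43. With the replicate number as a block the calls were 9 and 3. In wild-type livers, 991 and 1510 became 235 and 332 with only the 2 diets, 349 and 557 with 3 arrays a diet, and 473 to 920 and 821 to 1292 leaving out 1 array. With the replicate block, chosen after seeing the data, they were 572 and 942. There the residuals of same-numbered arrays did not correlate for every number (r = 0.322, 0.324 and -0.079). The difference between genotypes, 580 more positive and 419 more negative, became 56 and 42 with uncompressed probe sets only. Quantile normalization within each genotype gave 828 and 9583, and leaving out CAR-deficient ethanol replicate 1, gave 711 and 449. The replicate block of the CAR-deficient arrays gave 625 and 497. Both of these were also chosen after seeing the data.

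Of the male-biased genes, the 8 that fell became 2 with only the 2 diets, 1 with the replicate block, 5 after quantile normalization, centring or without moderation, 15 and 14 by the rank product at 0.05 and 0.025, and 1 to 3 leaving out 1 array. The 4 CAR targets that rose became 0 with only the 2 diets, 1 with the replicate block, 11 above an SD of 0.01, 19 and 17 by the rank product, and 1 to 2 leaving out 1 array. The 3 complement genes that fell became 0 with only the 2 diets, 0 with the replicate block, 5 above an SD of 0.01, and 0 to 3 leaving out 1 array. No female-biased gene passed except 5 above an SD of 0.01 and 11 and 10 by the rank product. At 0.05 the rank product called 215 of all 18188 genes higher and 240 lower. The median difference of all female-biased probe sets was 1.14 and of all proteasome probe sets 0.06. Of 505 values of the 30 genes named by size under alternatives, 271 kept their call, 234 lost it and 0 changed sign. The signs were largely fixed by the choice of genes without overlap of the arrays. The exact permutation p of the separation of the diets was 0.1 under each of 4 alternatives, the smallest each allows, and says nothing about stability. Except where a setting tests fewer arrays or probe sets, the cause was not tested.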

Other observations

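Genes that bind metals or carry iron included members with higher values on ethanol that did not pass the threshold. Hamp2, of the hepcidin family, read 13.05, 12.80 and 14.06 on ethanol and 10.37, 11.15 and 11.53 on control arrays (limma adjusted p = 0.176), and Slc39a4, a zinc importer, read 9.58, 10.22 and 10.37 on ethanol and 8.72, 8.56 and 8.66 on control arrays (adjusted p = 0.16). Neither gene overlapped between the diets. Of 19 metal and iron genes 5 lay higher without overlap and 1 lower (9.4% and 11.3% of all genes). Among genes with an uncompressed probe set these shares were 15.2% and 12.4%. Without ethanol replicate 1, 10 lay higher and 1 lower (16.7% and 20% of all genes).

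Of 17 glucocorticoid-responsive genes 5 lay higher without overlap and none lower (9.4% and 11.3% of all genes). Among genes with an uncompressed probe set these shares were 15.2% and 12.4%. The median difference of the 17 was 0.52. Leaving out ethanol replicate 1 gave 5 higher and 4 lower (16.7% and 20% of all genes), with a median of 0.17. Of 22 targets of PPAR alpha, a receptor for fatty acids, 2 lay higher and 2 lower without overlap (9.4% and 11.3% of all genes). Their median was 0.02. Without ethanol replicate 1, 12 lay higher and 2 lower (16.7% and 20% of all genes), 1 passed the limma threshold and the median was 0.41. Pdk4, a target which spares glucose by braking pyruvate dehydrogenase, read 7.68, 8.54 and 8.67 on ethanol and 6.94, 6.64 and 6.70 on control arrays (limma adjusted p = 0.228). Cyp26a1, which degrades retinoic acid, read 12.00, 8.89 and 10.32 on ethanol and 7.78, 8.11 and 8.41 on control arrays, so that every ethanol array was high and replicate 1 most. Mup5, a major urinary protein, read 7.01, 8.13 and 8.29 on ethanol and 9.75, 9.87 and 9.65 on control arrays, low on every ethanol array (adjusted p = 0.06).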
